A study of Mus musculus with 12 samples.

Results

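MiRNA levels in hearts of diabetic mice treated with pargyline (D + P) were compared with those in hearts of untreated control mice (C), to ask which miRNAs still lay away from the control level after treatment. The comparison used 6 of the 12 miRNA arrays of the study, chosen by their sample titles alone, with 3 arrays in each group and 1 heart per array. All animals were male C57BL6/J mice, with an age of 5 months in the labels. The D + P mice had received streptozotocin, which is toxic to pancreatic β-cells, at 50 mg/kg/day for 5 days, and then the monoamine oxidase (MAO) inhibitor pargyline at 50 mg/kg/day for 12 weeks. The C mice had received neither agent. The other 2 groups, diabetic (D) and control with pargyline (C + P), are used only where their values are set beside those of D + P. The heart is a mixture of cell types, so that fewer cells of a type and less of a miRNA per cell cannot be told apart. Streptozotocin was given before pargyline, and a mouse that received it was counted as diabetic from its blood glucose.

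MiRNAs are short RNAs cut from the 2 arms of a hairpin precursor and named 5p or 3p after the arm. The seed, bases 2 to 8 of the mature miRNA, pairs with sites in mRNAs, whose translation and stability are then lowered, and miRNAs with 1 seed form a family with overlapping targets. Heart muscle is known for very high levels of miR-1 and miR-133, for the myosin-embedded miR-208a and miR-499, and for miR-22. Other miRNAs mark vascular smooth muscle (miR-143 and miR-145), endothelium (miR-126), blood cells (miR-451a in red cells, miR-142a and miR-223 in white cells) and matrix-regulating pathways (miR-29 and miR-21a).

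The mature sequences of the miRNAs on which the results turn were taken from RefSeq (GRCm38.p6), where 113 of the 136 miRNAs with a level on all 6 arrays had an entry. Each is given 5′ to 3′ with its seed in capitals. The first 7 belong to miRNAs whose D + P arrays all lay on one side of the C arrays, and miR-22-3p and miR-26b-5p are added because their level depended on which D + P heart was measured.
miR-22-5p: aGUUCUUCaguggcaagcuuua
miR-27a-3p: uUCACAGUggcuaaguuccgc
miR-27b-3p: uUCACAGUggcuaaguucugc
miR-146a-5p: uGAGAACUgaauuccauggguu
miR-342-3p: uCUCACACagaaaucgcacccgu
let-7b-5p: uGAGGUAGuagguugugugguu
let-7i-5p: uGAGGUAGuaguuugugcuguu
miR-22-3p: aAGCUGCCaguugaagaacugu
miR-26b-5p: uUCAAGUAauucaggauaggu

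The 2 arms of miR-22 come from 1 hairpin, with the 5p arm at chr11:75463734-75463755 and the 3p arm at chr11:75463772-75463793, both on the plus strand and within the span of the long non-coding RNA gene Mir22hg. MiR-27a-3p (chr8:84208727-84208747, plus strand) and miR-27b-3p (chr13:63300760-63300780, plus strand, within the span of the protein-coding gene Aopep) have the same seed. Each of these 2 loci lies beside a copy of miR-24, at chr8:84208875-84208896 and at chr13:63301251-63301272. The let-7 seed is shared by let-7b-5p (chr15:85707325-85707346, plus strand, within Lncppara, a long non-coding RNA gene) and let-7i-5p (chr10:122985698-122985719, minus strand). MiR-342-3p (chr12:108658680-108658702, plus strand) lies within the span of the protein-coding gene Evl, and miR-146a-5p (chr11:43374435-43374456, minus strand) lies within no other listed gene. MiR-26b-5p (chr1:74394324-74394344, plus strand) lies within the span of the protein-coding gene Ctdsp1.

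The array signal was higher and more miRNAs were detected in D + P than in C hearts before any normalization. Between 187 and 218 of the 1881 miRNAs on the array were detected per D + P array, against 144 to 163 per C array. The summed intensity was 39661 to 58631 in D + P and 27107 to 35028 in C, and the median log2 difference of the miRNAs with a level on all 6 arrays was 0.62 before normalization. All levels below are therefore relative to the other miRNAs on the array (log2 intensity after cyclic loess), and a difference of 1 is 2-fold. The C arrays were on one slide and the D + P arrays on another, and in different rows, so that group, slide and row cannot be told apart. The 10 control features detected on all arrays had a mean log2 signal of 10.56, 10.29 and 10.50 on the C arrays and of 10.29, 10.86 and 11.10 on D + P arrays 1, 2 and 3. The median SD of a miRNA was 0.39 over the D + P arrays and 0.12 over the C arrays, and it was larger in D + P for 120 of the 136 miRNAs. D + P 1 stood apart from D + P 2 and D + P 3: across the 136 miRNAs, which are not independent replicates and share each array's normalization, the deviations of D + P 1 from the mean of the 6 arrays had r = -0.76 with those of D + P 3, while D + P 2 and D + P 3 had r = 0.61. Results are given with and without D + P 1 where it decides them. The tissue label was checked with the cardiomyocyte miRNAs, of which 6 of 7 were detected on all 6 arrays with a summed intensity of 3636.5 to 4490 in C and 3243.9 to 10174.6 in D + P. Of the 6 liver, kidney and gut miRNAs 4 were detected on no array, and the summed intensity of the list was 0 in C and at most 8 in D + P.

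No miRNA passed the test between D + P and C hearts after adjustment for multiple testing, although single miRNAs lay as far as 0.91 above and 0.93 below control on the log2 scale. Of 136 miRNAs detected on all 6 arrays, 0 passed an adjusted p of 0.05 (0%), the lowest adjusted p being 0.33 (limma, Benjamini-Hochberg). Before adjustment 7 of the 136 (5.15%) had p under 0.05, 5 with a higher (3.68%) and 2 with a lower mean in D + P (1.47%). The methods' t-test also gave 0 calls, with 11 at an unadjusted p under 0.05. The 0 calls ended when the control feature signal of each array was added to the fit as a covariate, which left 26 miRNAs past the threshold, 12 higher and 14 lower in D + P, with 10 of the 15 non-overlapping miRNAs among them (limma, lowest adjusted p 0.039). That signal was higher on D + P 2 and D + P 3 than on D + P 1 and the C arrays, so it is tied to group and to D + P 1. Of the 26, only miR-22-5p also passed when D + P 1 was left out. What part of these calls the covariate made was not tested. The difference was above 0 for 62 miRNAs and below 0 for 74, with a median of -0.03 and a median absolute size of 0.19. In the normalized table deposited by the authors it was above 0 for 23 and below 0 for 113, with a median of -0.33. Values from that table are uncertain for D + P, since its columns for D + P 2 and D + P 3, centred on each miRNA's mean, correlated across the 136 miRNAs with the scanner signals of their own arrays at r = 0.17 and 0.01 only and were most like those of D 3. The 95% confidence interval of the difference reached 2-fold or beyond for 29 miRNAs and lay within 2-fold for all others. The median half-width of these intervals was 0.55, so that differences of the usual size here were not detectable with these arrays.

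The groups did not overlap for 15 miRNAs (11%). With 3 exchangeable arrays against 3, a share of 0.1 of all orderings separates the groups, so that 11% is near the share without any difference. All 3 D + P arrays lay above all 3 C arrays for 7 of the 136 (5.15%) and below them for 8 (5.88%). These counts were 1 and 31 in the authors' normalized values, 11 and 12 without C 1, 32 and 35 without D + P 1, and 21 and 17 without D + P 3. Groups separate more easily when an array is left out, so that those counts are not directly comparable with the 7 and 8. The 7 were miR-22-5p, miR-145a-5p, miR-27a-3p, miR-378c, miR-652-5p, miR-27b-3p and miR-29a-3p. The 8 were miR-146a-5p, miR-342-3p, let-7b-5p, miR-345-5p, miR-327, miR-451a, miR-106b-5p and let-7i-5p. None of these passed the adjusted threshold, and they are described below as values.

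**Figure D1:**
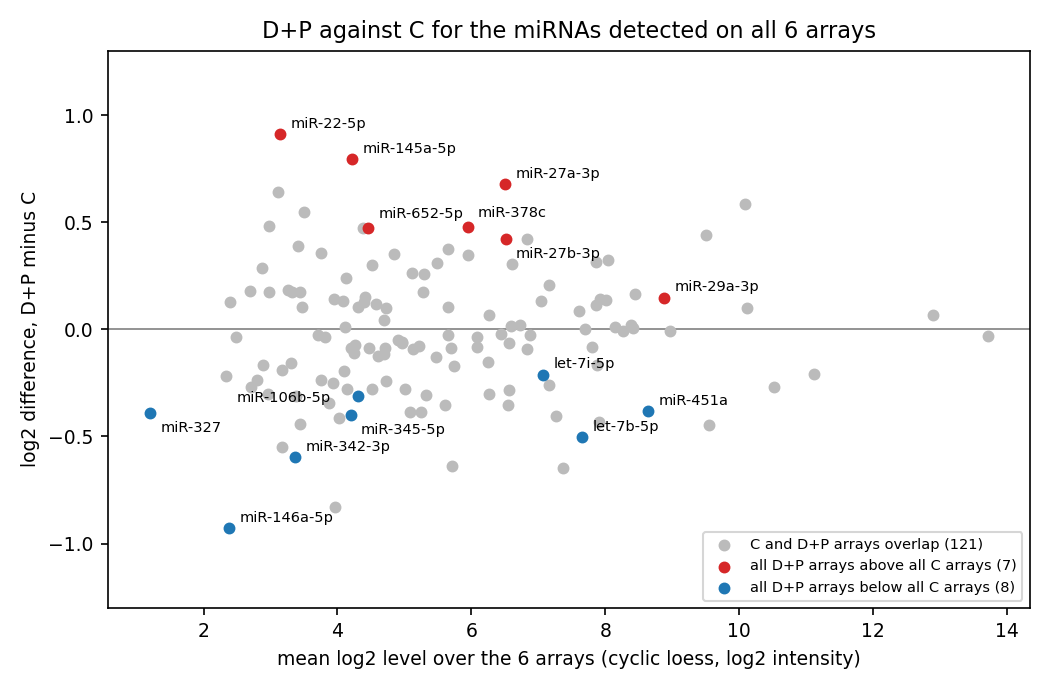
Log2 difference between D + P and C hearts (vertical axis) against the mean log2 level over the 6 arrays (horizontal axis) for the 136 miRNAs detected on all 6 arrays. Red points (7) have all D + P arrays above all C arrays, blue points (8) have all below, and the 121 grey points overlap, with every point between -0.93 and 0.91.

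MiR-22-5p, the minor arm of the muscle-enriched miR-22, had the largest positive difference. Its log2 levels were 2.82, 2.68 and 2.56 on the C arrays and 3.45, 3.40 and 3.95 on the D + P arrays. Every D + P heart thus lay above the highest C heart, by more than the range of the C hearts. The difference was 0.91 (SE 0.22), or 1.88-fold, with an adjusted p of 0.33 (limma). MiR-22-5p was dim, at rank 131 of the 136 by C level. Before normalization its intensities were 4.5 to 5.8 in C and 11.7 to 21.3 in D + P. The lowest detected signals of the C arrays were 1.7 to 2.2. With the spread taken from all 12 arrays and 128 miRNAs, miR-22-5p was 1 of 2 miRNAs past the threshold in D + P against C (1.56%), with a difference of 0.95 and an adjusted p of 0.014 (limma). In the same fit its difference from C was 1.39 in D and 1.59 in C + P, so that it lay above control in all 3 groups. The D + P arrays spread most in that fit, with a median SD of 0.35 beside 0.12 to 0.18 in the other groups. A spread shared over the groups is thus too small for D + P, and its p-values there are too low. In the authors' normalized values, with their uncertain D + P columns, the difference of miR-22-5p was -0.07.

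MiR-145a-5p, a miRNA of vascular smooth muscle, was the other. Its levels of 4.07, 3.46 and 3.93 in C compared with 4.93, 4.52 and 4.41 in D + P. The lowest D + P array was above the highest C array, with D + P 1 the highest of all. The difference was 0.80 (SE 0.24) with an adjusted p of 0.40 in the fit of the 6 arrays and 0.043 in that of the 12 arrays (limma). The limit of the shared spread applies to this last value too. Without C 2 or without C 3, neither miRNA passed in the 12-array fit. That fit gave 32 miRNAs without D + P 1, 1 without D + P 2 and 6 without D + P 3. In the 12-array fit miR-145a-5p differed from C by 0.38 in D and 0.27 in C + P, neither past the threshold. MiR-143-3p, which is made from the same precursor transcript as miR-145a, overlapped between the groups, with 5.13, 5.78 and 6.00 in D + P against 5.25 to 5.44 in C.

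MiR-27a-3p and miR-27b-3p, whose sequences above share the seed UCACAGU, were both on the higher side. MiR-27a-3p, one of the 7 miRNAs chosen by the study for qRT-PCR, had levels of 6.65, 5.98 and 5.87 in C and 6.78, 6.74 and 7.02 in D + P. C 1 lay close below the D + P arrays and apart from the other C arrays. The difference was 0.68 (SE 0.25, adjusted p = 0.66, limma). MiR-27b-3p had 6.34, 6.35 and 6.22 in C against 6.82, 6.58 and 6.77 in D + P, a difference of 0.42 (SE 0.19, adjusted p = 0.69, limma). The other members of the miR-23/27/24 clusters, which pair with other sites, overlapped between the groups, with differences of 0.31 for miR-23a-3p, 0.42 for miR-23b-3p and 0.32 for miR-24-3p. All 5 of 5 measured cluster members thus had a positive difference, with a median of 0.42 beside -0.03 over all 136 miRNAs, and 0 of 5 passed the threshold. They are not 5 independent measurements, since cluster members lie side by side and the miR-27a-3p and miR-27b-3p sequences differ at 1 base. Whether the array tells these sequences apart was not tested. The 5 of 5 held under each of the 4 other scalings tried, with medians of 0.22 to 0.39. In the 12-array fit, the difference of miR-27a-3p from C was 0.99 in D, 0.76 in C + P and 0.65 in D + P, and that of miR-23b-3p was 0.73, 0.76 and 0.40.

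**Figure D2:**
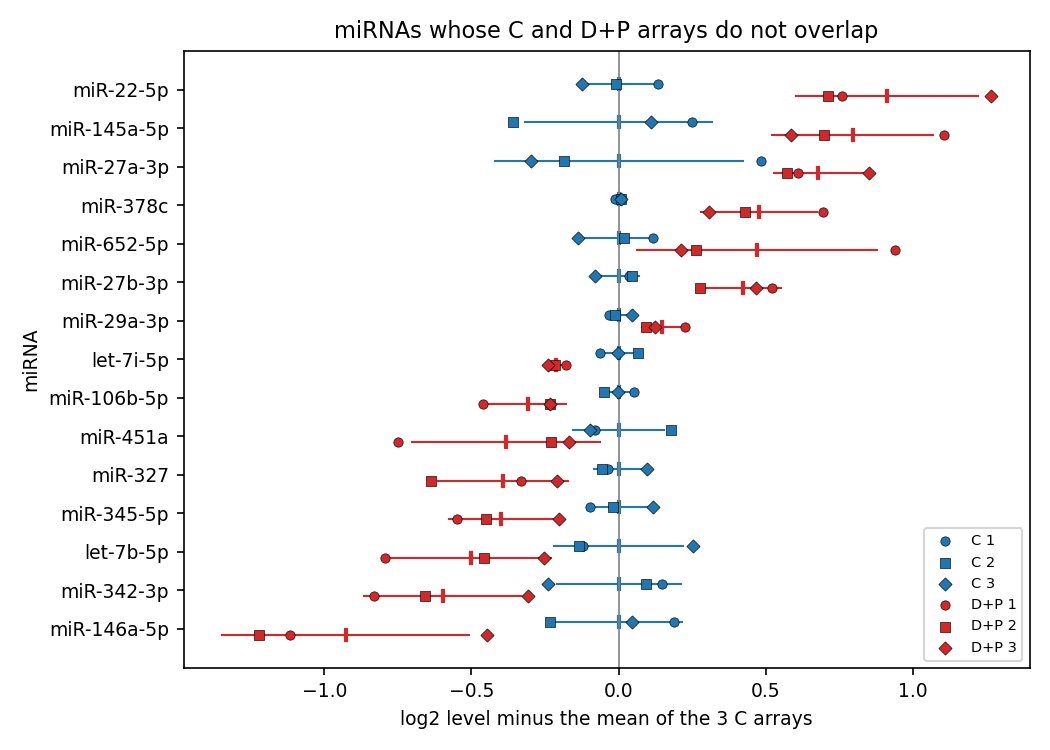
Log2 level of each array minus the mean of the 3 C arrays (horizontal axis) for the 15 miRNAs whose C (blue) and D + P (red) arrays do not overlap, 1 miRNA per line. Symbols mark the replicate, the tick the group mean and the bar 1 SD (n = 3), and the largest mean differences are 0.91 for miR-22-5p above and -0.93 for miR-146a-5p below control.

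The remaining miRNAs on the higher side differed by less. MiR-378c, of the miR-378 family that acts in muscle energy metabolism, had 5.69, 5.71 and 5.71 in C and 6.40, 6.13 and 6.01 in D + P. This difference of 0.48 (SE 0.20, adjusted p = 0.69, limma) held on each array, with D + P 1 the highest. Its relatives overlapped between the groups, with a difference of -0.08 for miR-378a-3p, of 0.17 for miR-378d and of 0.13 for miR-378b, whose sign turned under quantile normalization. MiR-652-5p differed by 0.47, with D + P 1 at 5.16 and the other D + P arrays at 4.48 and 4.43, close above the C arrays at 4.09 to 4.34. MiR-29a-3p, a repressor of collagen mRNAs, differed by 0.15 only (SE 0.18), and its relatives miR-29b-3p and miR-29c-3p shared the positive sign with a smallest difference of 0.02. In the authors' normalized values the difference of miR-29a-3p was -0.06.

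On the lower side, miR-146a-5p, a negative regulator of inflammatory NF-κB signalling, had the largest difference. Its levels were 3.03, 2.61 and 2.89 in C and 1.72, 1.62 and 2.39 in D + P. D + P 3 lay only just below the lowest C array, and the other 2 D + P arrays lay well below. The difference was -0.93 (SE 0.25, adjusted p = 0.35, limma). MiR-146a-5p was also dim, at rank 127 of the 136 by C level. Before normalization its intensities overlapped between the groups, at 4.2 to 6.8 in C and 3.7 to 6.8 in D + P. Without D + P 3, miR-146a-5p passed the threshold, with a difference of -1.15 (adjusted p = 0.031, limma). Compared with C, it differed by -0.04 in D and by 0.84 in C + P in the fit of 12 arrays. MiR-342-3p, found in lymphoid and myeloid cells, had 3.81, 3.76 and 3.42 in C and 2.83, 3.01 and 3.36 in D + P, a difference of -0.60 (SE 0.22, adjusted p = 0.66, limma).

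White-cell miRNAs were of low signal, and the negative differences of those with a level rested in part on D + P 1. Of 8 listed, 4 had a level on all 6 arrays, and all 4 had negative differences with a median of -0.57, the 4 of 4 holding under each of the 4 other scalings with medians of -1.42 to -0.41. None passed the threshold. MiR-142a-3p had levels of 1.60, 3.30 and 3.81 in D + P against 3.23 to 3.67 in C, so that only D + P 1 lay below the C range. Likewise miR-223-3p had 1.94, 2.90 and 3.58 in D + P and 2.71 to 3.80 in C. Without D + P 1 the differences of these 2 were 0.12 and 0.16, while those of miR-146a-5p and miR-342-3p kept their sign without any 1 array. The listed miR-142a-5p and miR-155-5p were each detected on no C array and 2 D + P arrays, and miR-150-5p on 2 C and 3 D + P arrays. Detection is not normalized and favoured D + P across the array, for 96 of the 1881 miRNAs against 7. It is thus no evidence on the normalized levels. Before normalization, the summed intensity of the list was 25.8 to 44.2 on the C arrays and 21.6 to 82 on the D + P arrays.

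In every D + P heart, 2 let-7 members lay below control. Let-7b-5p had 7.78, 7.77 and 8.16 in C and 7.11, 7.44 and 7.65 in D + P. Let-7i-5p had 7.12, 7.24 and 7.18 in C and the close-set values 7.00, 6.96 and 6.94 in D + P. Their differences were -0.50 (SE 0.23) and -0.21 (SE 0.18), with adjusted p-values of 0.69 and 0.82 (limma). The other 5 measured members carry the same seed and overlapped between the groups, with differences from -0.43 for let-7c-5p to 0.09 for let-7f-5p. The median of the 7 was -0.17, and their number below 0 was 5 with cyclic loess and 5 to 7 with the other scalings. Let-7f-5p, chosen by the study for qRT-PCR, had 6.81, 7.76 and 8.40 in D + P against 7.50 to 7.67 in C, so that its mean difference near 0 covered a D + P heart below and 2 above control.

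The other miRNAs on the lower side were of small difference. The red cell miR-451a, processed without Dicer, had 8.08, 8.60 and 8.66 in D + P against 8.73 to 9.0 in C, a difference of -0.38 with the groups separated by less than the C range. The other measured red cell miRNAs, miR-144-3p and miR-486a-5p, differed by -0.08 and -0.06 and overlapped. MiR-345-5p differed by -0.40, miR-327 by -0.39 and miR-106b-5p by -0.31, the last with D + P arrays at 4.00 to 4.23 and C arrays at 4.41 to 4.51. MiR-106b-5p lies within the span of the protein-coding gene Mcm7, and miR-93-5p, which has the same seed AAAGUGC, differed by 0.17 with overlap. MiR-327 was the dimmest of the 136, at log2 levels from 0.76 to 1.5. Before normalization its signals were 1.73 to 2.24 in C and 2.39 to 2.63 in D + P. With quantile normalization its difference was 0.

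**Figure D3:**
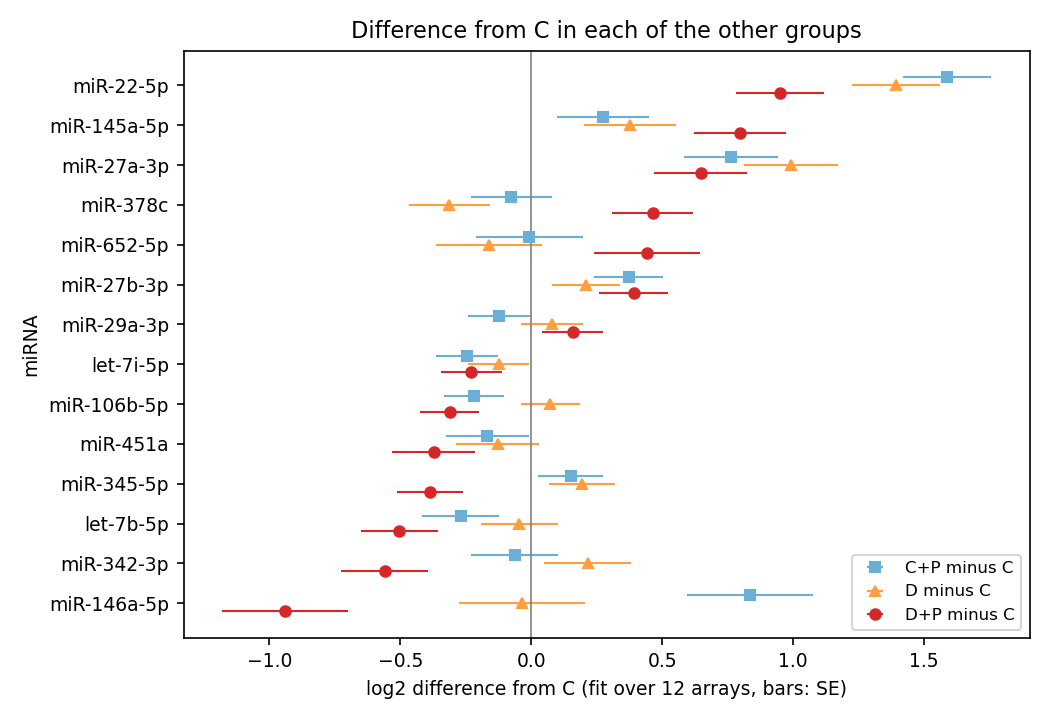
Log2 difference from C (horizontal axis, bars 1 SE) in C + P, D and D + P hearts for 14 of the 15 miRNAs, from the fit over 12 arrays. All 3 comparisons share the C arrays. MiR-22-5p and miR-27a-3p lie above C in the 3 groups, while miR-652-5p, at 0.44, and miR-342-3p, at -0.56, lie farther from C in D + P than in D or C + P.

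The distance of D + P hearts from control is given beside that of the other groups, with no test between them. In the 12-array fit the median absolute difference of group means from C was 0.19 in D + P. It was 0.49 in D and 0.41 in C + P. The numbers past the threshold were 2 (1.56%), 64 (50%) and 47 (36.7%) of 128 miRNAs (limma), from comparisons that share the C arrays. The median SD of a miRNA was widest in D + P, at 0.35, beside 0.12 in C and in C + P and 0.18 in D. Opposite deviations cancel in a group mean, and those of D + P 1 and D + P 3 had r = -0.76. In the 6-array levels, D + P 1, D + P 2 and D + P 3 had median absolute distances of 0.39, 0.24 and 0.35 from the C mean. They lay within the C range for 22, 42 and 26 miRNAs. Such distances were not taken for single D or C + P arrays, so the small D + P mean does not place each treated heart near control. For the muscle miRNA miR-1a-3p the difference from C in the 12-array fit was 1.32 in D, 1.48 in C + P and 0.61 in D + P. MiR-22-3p, of similar level in C, differed by -0.97, -1.03 and -0.43. Neither D + P value passed the threshold.

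Results depended on D + P 1. When it was left out and the levels were renormalized, 23 of the 136 miRNAs (16.9%) passed the threshold, 14 higher and 9 lower than in C (limma, adjusted p from 0.011 to 0.047), with 50 at an unadjusted p under 0.05. Passing only without D + P 1 largely fixes that D + P 1 lies away from the other 2 hearts for these miRNAs, so its position is a description. For 13 of the 23, D + P 1 lay outside the C range on the side opposite to D + P 2 and D + P 3. For 9 it lay within the C range, and for 1, miR-22-5p, on the same side. MiR-26b-5p was the clearest case, with 5.50, 5.42 and 5.47 in C and 4.87, 6.09 and 6.55 in D + P. Without D + P 1 its difference was 0.86 (adjusted p = 0.028), and with it 0.37 (adjusted p = 0.82, limma).

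**Figure D4:**
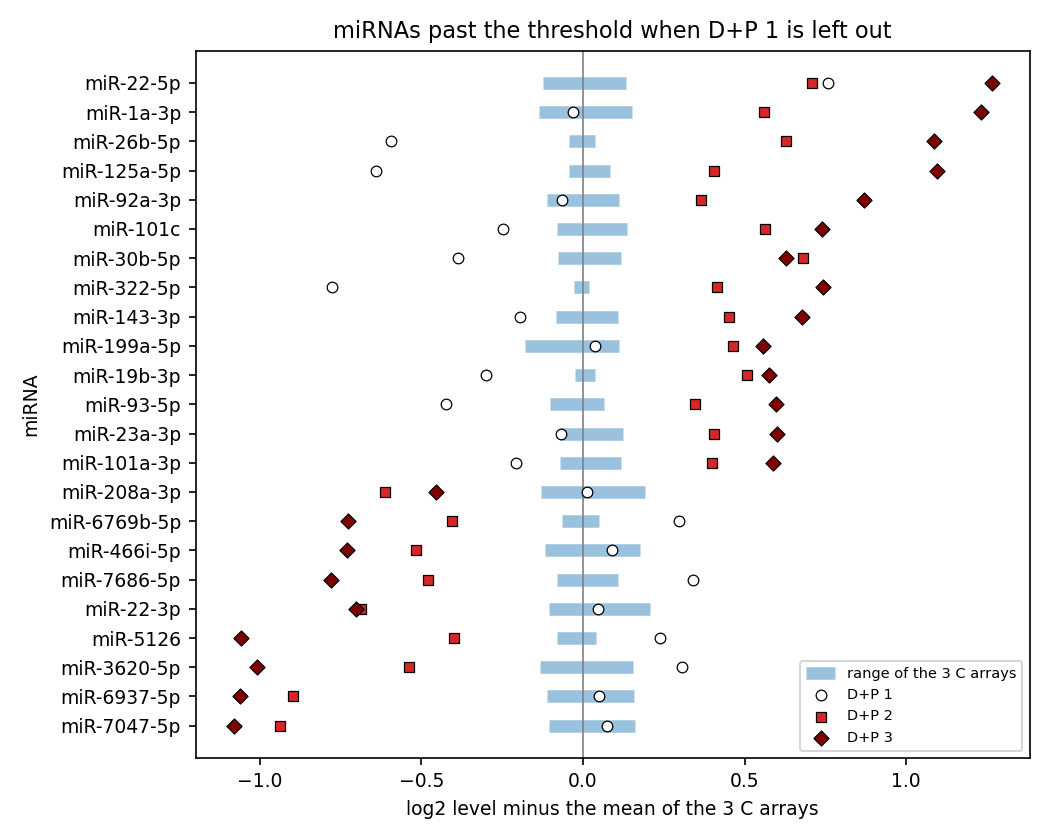
Log2 level minus the mean of the 3 C arrays (horizontal axis) of each D + P array for the 23 miRNAs past the threshold when D + P 1 is left out, with the range of the C arrays as a blue bar. D + P 2 (squares) and D + P 3 (diamonds) lie on one side of C, and D + P 1 (open circles) lies on the opposite side for 13, within the bar for 9 and on the same side for miR-22-5p.

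Among these 23, which were chosen after their values were seen, were cardiac miRNAs. MiR-1a-3p had 9.95, 9.78 and 9.66 in C and 9.76, 10.36 and 11.03 in D + P. Its difference was 0.59 over the 3 D + P hearts (adjusted p = 0.69) and 0.91 without D + P 1 (adjusted p = 0.036, limma). MiR-208a-3p, which is embedded in a cardiac myosin gene, was at 5.65, 5.97 and 5.72 in C and 5.79, 5.17 and 5.32 in D + P, with a difference of -0.54 without D + P 1. MiR-22-3p, the major arm of miR-22, had 9.66, 9.97 and 9.67 in C and 9.82, 9.08 and 9.06 in D + P, and a difference of -0.69 without D + P 1. Its 5p arm rose by 1.03 in that setting, so that the 2 arms of 1 hairpin lay on opposite sides of control in D + P 2 and D + P 3. The others that rose without D + P 1 were miR-26b-5p, miR-125a-5p, miR-92a-3p, miR-101c, miR-30b-5p, miR-322-5p, miR-143-3p, miR-199a-5p, miR-19b-3p, miR-93-5p, miR-23a-3p and miR-101a-3p. Those that fell were miR-7047-5p (by 1.02), miR-6937-5p (by 0.99), miR-3620-5p, miR-5126, miR-7686-5p, miR-466i-5p and miR-6769b-5p besides the 2 cardiac miRNAs.

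Among the 10 miRNAs with the highest C level, the differences ran from -0.45 for miR-22-3p to 0.59 for miR-1a-3p. Their median absolute size was 0.24, beside 0.19 over all 136, and 3 of the 10 confidence intervals reached 2-fold. MiR-133a-3p had levels of 10.59, 10.66 and 10.72 in C and of 9.99, 10.53 and 10.64 in D + P. This qRT-PCR miRNA and miR-133b-3p, with which it shares its role in muscle, differed by -0.27 and -0.21, and by -0.06 and -0.03 without D + P 1. The endothelial miR-126a-3p was at 8.97 ± 0.07 in C and 8.96 ± 0.24 in D + P (SD, n = 3 each). Among miRNAs above the median C level, the 10 with the smallest difference were also taken. MiR-26a-5p was the steadiest of these 10, at 8.27 ± 0.04 in C and 8.26 ± 0.06 in D + P. The 95% interval of its difference ran from -0.42 to 0.41. The other 9 were miR-125b-5p, miR-30a-5p, miR-126a-3p, miR-494-3p, let-7d-5p, miR-29c-3p, miR-133a-5p, let-7g-5p and miR-99a-5p. For let-7d-5p a small difference of 0.02 covered D + P values from 5.95 to 7.14.

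Matrix-regulating miRNAs, with 6 of 7 measured, had a median of 0.12 (-0.07 in the authors' normalized values) and 1 of 6 non-overlapping, miR-29a-3p, beside 11% over all 136 miRNAs. MiR-21a-5p, known for its role in cardiac fibroblasts, had a difference of -0.30. Cardiomyocyte miRNAs had a median of -0.24, with 2 of 6 above 0. The miR-15 and miR-16 family had 3 of 6 above 0 and a median of -0.01. MiR-30 members were above 0 in 5 of 5 with a median of 0.13, but in 4 of 5 with quantile normalization and in 1 of 5 in the authors' normalized values. The miR-17 and related clusters had 3 of 5 above 0 (median 0.17), the miR-10 and miR-99 family 2 of 4 (-0.01), the miR-130 group 2 of 3 (0.10), miR-26 1 of 2 (0.18), miR-101 2 of 2 (0.31) and the miR-103 pair 1 of 2 (-0.04). In the authors' normalized values, the miR-17 clusters had 1 of 5 above 0, and the miR-10 and miR-99 family, the miR-130 group and the miR-103 pair had none. No list held a miRNA past the threshold.

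Lists that the study chose on these arrays are not independent evidence of their direction. The first cluster of interest in the study, of 37 miRNAs, had 17 members with a level on all 6 arrays, 7 above and 10 below 0, with a median of -0.05 (1 above and 16 below 0 and a median of -0.30 in the authors' normalized values). In the second, all 11 miRNAs had a level, 7 above and 4 below 0, with a median of 0.11. With quantile normalization this last median was -0.02 and with the authors' values -0.16. Of the 7 qRT-PCR miRNAs, miR-152-3p differed by -0.25 and miR-185-5p by -0.09, with overlap for both. Neither miR-193a-3p nor miR-193b-3p had a signal in C or on D + P 1. On D + P 2 and D + P 3 they had intensities of 3.79 and 4.56 and of 4.09 and 4.31, so that no level could be compared.

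Detection differed mostly in 1 direction, towards D + P. All 136 miRNAs detected on every C array were also detected on every D + P array. A further 39 had a signal on each D + P array but on fewer than 3 C arrays, 16 of them on no C array. In all, 96 of the 1881 miRNAs were detected on more D + P than C arrays (5.1%) and 7 on more C than D + P arrays (0.372%). The exact Fisher test for a single miRNA cannot go below p = 0.1 with 3 arrays against 3, so that these counts are descriptions. The arrays with the higher summed intensity also detected more miRNAs, and what part of the change in detection this made was not tested.

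**Figure D5:**
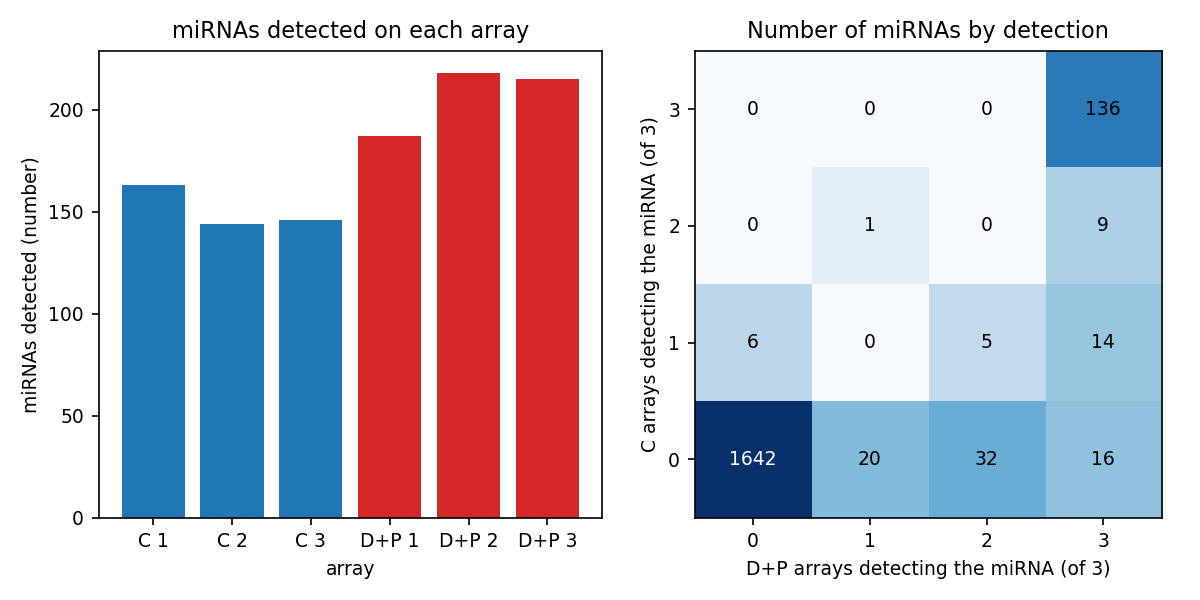
Left, number of miRNAs detected on each C (blue) and D + P (red) array, from 144 on C 2 to 218 on D + P 2. Right, number of miRNAs by how many C arrays (vertical axis) and D + P arrays (horizontal axis) detected them, with 1642 detected on none of the 6 arrays, 136 on all and 16 on all D + P and no C array.

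The 16 miRNAs detected on all D + P and no C array were dim, at intensities of 1.93 to 16. MiR-6360 was the brightest, with 10, 14.3 and 10.2 on the D + P arrays, and its normalized level was 2.42 times the lowest detected signals of the C arrays (2.35 times with quantile normalization and 3.78 times with the 75th percentile). With undetected values at the array's lowest detected signal, it passed the threshold (adjusted p = 0.022, limma over 175 miRNAs). It entered that fit through its detection in D + P, and all its C values were filled in. Its small C spread thus came from the filling, and the p-value is no independent support. MiR-126a-5p, the 5p arm of the endothelial miR-126, had 4.78, 8.93 and 16 and a ratio of 1.82 (adjusted p = 0.34). The ratio was 1.73 for miR-3081-5p, 1.61 for miR-3474, 1.51 for miR-1904, 1.14 for miR-1198-5p and 1.05 for miR-5119, in the last case over D + P values from 1.93 to 10.2. With quantile normalization it was 1.59, 1.32 and 1.37 for the first 3 of these. The ratios are no lower bounds, because a miRNA without a detection flag can have a signal above the lowest detected one. For the other 9, miR-7058-5p, miR-3473e, miR-8102, miR-181d-5p, miR-3077-5p, miR-7070-5p, miR-5107-5p, miR-320-3p and miR-706, the ratio was under 1 and is not given.

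The C + P arrays, which shared the slide of D + P, all 3 had a signal for 15 of these 16. The D arrays, which shared the slide of C, all 3 had a signal for miR-126a-5p only. For 7 of the 16 no D array had a signal. Slide and pargyline treatment run together across these groups and cannot be told apart.

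A second set of 26 miRNAs was detected on D + P 2 and D + P 3 only among the 6 arrays. It held miR-98-5p of the let-7 family, miR-140-5p, miR-20b-5p, miR-19a-3p, miR-10a-5p, miR-10b-5p, miR-128-3p, the immune-cell miR-142a-5p and miR-155-5p, miR-214-3p and both miR-193 members. Every C + P array also had a signal for 20 of the 26, and every D array for 16. Leaving out D + P 1 raised the count of miRNAs on all D + P but not all C arrays from 39 to 69.

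In the fit of 175 miRNAs with undetected values filled in, 6 passed the threshold, with 24 at an unadjusted p under 0.05 (limma). The 39 miRNAs added to the 136 all entered through detection on every D + P array, with C values filled in. Calls among these 39 are therefore descriptions and no independent support. MiR-221-3p, found in endothelium, had 9.59, 17.4 and 24.9 in D + P and was detected on C 1 alone, at 3.67. Its fitted difference was 1.61 (adjusted p = 0.037). MiR-6360 and miR-6997-5p were also higher, while miR-146a-5p (-1.42), miR-327 (-1.21) and miR-706 were lower. With the 136 miRNAs alone, the differences of miR-146a-5p and miR-327 were -0.93 and -0.39, and why they changed was not tested. MiR-327 was itself the lowest detected signal on C 1 and C 2, so that its value lies at the floor. MiR-706 was detected on D + P arrays only, so that its lower value compares it with filled-in C signals and is no measured decrease. The call rested on single arrays: 0 passed without C 2, without C 3 or without D + P 2, and 34 passed without D + P 1.

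A set of 6 miRNAs was detected on 1 C array and on no D + P array, namely miR-26b-3p, miR-297b-5p, miR-29b-1-5p, miR-302b-3p, miR-7238-3p and miR-764-3p. Their intensities were between 1.93 and 4.43. None of them was detected on a D or C + P array.

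Seed groups are given by the position of their members, with no test between members. Among the miRNAs with a RefSeq sequence, 14 seeds were shared by at least 2 of those with a level on all 6 arrays. In the let-7 group, 2 of 7 members were lower without overlap, beside 5.88% of all 136 miRNAs, and 5 overlapped. In the seed group AGCAGCA of the miR-15 and miR-16 family, all 6 overlapped between the groups, and differences ran from -0.17 to 0.17. The seed group GUAAACA of miR-30 had differences of 0.00 to 0.13 over 3 members. Only the pair miR-27a-3p and miR-27b-3p, whose sequences differ at 1 base, had all of its members on 1 side without overlap. The median GC content was 50.0% over 6 of the 7 higher miRNAs, 42.9% over 7 of the 8 lower ones and 50.0% over all 113 with a sequence.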

How the data were processed

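Total RNA of mouse hearts was labelled and hybridized to Agilent 8 x 60 K mouse miRNA arrays with 1 colour, per the methods. The intensity of each of 1881 miRNAs, summed over its probes by the scanner software and not normalized between arrays, was deposited with a detection flag. Undetected miRNAs are written as 0.1. The normalized intensity table deposited by the authors (209 miRNAs and 10 control features) could not be rebuilt from these signals, and some of its columns were more like other arrays than their own. It served as an alternative only. The labels' extraction text names macrophages, while all other sources name hearts.

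Log2 intensities of the 136 miRNAs detected on all 6 arrays were cyclic loess normalized (span 0.7, 3 iterations, R 4.3.3 with limma 3.58.1) and fitted with lmFit and eBayes on the 6 arrays, since D + P arrays spread more than the others. P-values are 2-sided and Benjamini-Hochberg adjusted (threshold 0.05). A fit over 12 arrays and 128 miRNAs gave the D and C + P values. MiRNAs outside the 136 were compared by detection, and those detected on all arrays of 1 group were also fitted with undetected values at the array's lowest detected signal. MiRNAs were named where the groups did not overlap (up to 10 per direction by difference), for qRT-PCR in the study, for detection on all arrays of 1 group only, as list members, or for high or steady level, with exceptions stated. The members and the 22 lists were chosen with earlier results of these data known. The fit was tested on simulated data, with shifts larger than any difference seen here and noise independent between miRNAs. That test does not show how the fit works at the observed sizes. The number of arrays limits the precision. No unmapped sample column was found.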

Additional observations from a re-analysis of the deposited data

How the results depend on the processing

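The 0 calls among levels held with quantile normalization, the 75th percentile over the 136 miRNAs, only miRNAs with a level on all 12 arrays, no filter, an added offset of 16, an intensity trend, array weights, the methods' t-test and Bonferroni adjustment, and the replicate block also gave 0 (8 at an unadjusted p under 0.05). The deviations of arrays with the same replicate number had r of -0.37, -0.12 and -0.26. These gave no sign of pairing, but 3 such values cannot exclude it. Calls appeared elsewhere. Without normalization 6 passed, all higher (2 in the lists), and the 75th percentile of all miRNAs, which is 0.1 on every array, gave the same 6 and 2. The authors' values gave 6, all lower, the filter of detection in at least 1 group 6 (2 in the lists), the 12-array fit 2 (1 in the lists) and the control feature signal as a covariate 26 (16 in the lists). Leaving out 1 array gave 0 to 23 (0 to 14 in the lists), with 23 without D + P 1 and 1 without D + P 3. The lists hold many of the 136 tested miRNAs, with 17 in the first cluster of the study alone. The counts in the lists are therefore no result about the lists. Detection on at least 2 of 3 arrays of a group gave 67 miRNAs in place of 39, and leaving out 1 array 33 to 69. The fit with filled-in values gave 1 with quantile normalization in place of 6, and 0 to 34 without 1 array. The 12-array fit gave 4 with quantile normalization and 1 with the 75th percentile in place of 2, and 0 to 32 without 1 array. The cause of these shifts was not tested.

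Of 48 named miRNAs, 30 turned the sign of their difference under no alternative run, and 40 of 1102 values turned it. A rounded difference of 0 was not counted as turned, as with quantile normalization for miR-327, miR-133b-3p and miR-3963. With quantile normalization, the sign turned for miR-378b (-0.03). With the authors' normalized values, the sign turned for miR-22-5p (-0.07), miR-29a-3p (-0.06), miR-8101 (-0.77), let-7f-5p (-0.05) and miR-92a-3p (-0.05). With no filter on detection, the sign turned for miR-378a-3p (0.18), miR-8101 (-0.06), miR-486a-5p (0.06), miR-92a-3p (-0.17), miR-126a-3p (0.27) and miR-322-5p (-0.14). With the 12-array fit, the sign turned for miR-126a-3p (0.01). With array weights, the sign turned for miR-223-3p (0.02), miR-126a-3p (0.07) and miR-185-5p (0.01). With the control feature covariate, the sign turned for miR-378a-3p (0.14), let-7f-5p (-0.42), miR-144-3p (0.01), miR-486a-5p (0.14), miR-6366 (0.1), miR-26b-5p (-0.19), miR-30b-5p (-0.07), miR-322-5p (-0.38) and miR-3620-5p (0.04). Over the fits without 1 array the sign turned within the range of miR-223-3p (-0.68 to 0.16), miR-126a-3p (-0.13 to 0.11), miR-144-3p (-0.2 to 0.08), miR-378b (-0.02 to 0.26), miR-142a-3p (-0.99 to 0.12), miR-185-5p (-0.21 to 0.05), miR-6366 (-0.15 to 0.03), miR-322-5p (-0.19 to 0.58), miR-378a-3p (-0.26 to 0.09), let-7f-5p (-0.29 to 0.49) and miR-486a-5p (-0.23 to 0.06).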
